A study of Rattus norvegicus with 4 samples.

Results

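Complement and coagulation plasma proteins were followed in rat liver through a list of 55 genes. A gene counted as measured when a probe set of the array carried it as its only symbol, and the brightest probe set over all arrays stood for a gene that had several. By this rule 49 of the 55 were measured, out of 14506 genes in all. C2 and Cfb share a probe set with each other and C4a shares one with C4b, so none of the 3 was read, and C5, F9 and Vwf were not analysed here. The lean group was a single pool of liver RNA from 4 lean male WNIN/Ob rats and the obese group a single pool from 4 obese males of that strain. All animals were 4 months old, untreated and fed stock diet, and the labels give their phenotype but not their genotype. WNIN/Ob is an Indian rat strain in which obese animals arise. Each pool was put on 2 Affymetrix Rat Gene ST arrays, called original and technical replicate in the labels, and the study asked how baseline liver expression differs between the phenotypes. With 1 pool for each phenotype there is no spread between animals, so no test was possible and every difference below is one between these pools.

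Complement is a set of plasma proteins that marks microbes and debris for removal and can pierce membranes. It is started by antibody-bound C1, by lectins that bind sugars, or by the slow turnover of C3, and the routes meet at C3 and end in a pore built from C5b to C9. Clotting is a chain of proteases that ends when thrombin cuts fibrinogen into fibrin, and it is held in check by inhibitors and by plasmin, which dissolves fibrin. Hepatocytes secrete most of these proteins, whereas C1q and properdin come largely from macrophages and other myeloid cells and factor VIII largely from endothelium.

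Few of the measured genes differed by much between the pools, and 2 passed the size rule used here, both on the lower side. C7, a component of the membrane pore, and Klkb1, which encodes plasma prekallikrein, were at least 1.5-fold lower in the obese pool, and 0 of the 49 genes were at least 1.5-fold higher. By the same rule 2.43% of all genes were lower and 2.19% higher. The rule asked for a factor of 1.5 between the pool means on the log2 scale, a gap of at least 0.25 between the nearest arrays of the pools, and a level of at least 5.48 in the higher pool, which is the median of all genes. Of the 49 genes 48 reached that level, all but F3, and among the 7555 genes that reached it 4.66% were lower and 4.2% higher. C7 was also the only gene of the 49 past the corresponding 2-fold rule, which asked for a gap of 0.5. That rule was passed as lower by 1.48% of all genes and 2.85% of those at the filter level, and as higher by 0.572% and 1.1%. The median difference of the 49 genes, obese minus lean, was 0.012 on the log2 scale, beside 0.033 for all genes and 0.076 for those at the filter level. Of the 49 genes 27 (55.1%) lay above 0 and 22 below. Above 0 lay 56.9% of all genes and 63.6% of those at the filter level. Cyclic loess between the arrays turned the median of the 49 genes to -0.069 and quantile normalisation to -0.027, so it has no settled direction.

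The differences lay within 0.25 of 0 for 40 of the 49 genes (81.6%), for 72.9% of all genes and for 66.0% of the genes that reached the level filter. Of the 31 genes of the list with a mean level of 10 or more, 28 (90.3%) lay within 0.25, beside 67.1% of the 498 genes of the array at such levels. Of the 18 genes of the list under that level, 12 (66.7%) lay within 0.25, a share like that of genes at the filter level, and their median size was 0.16. Small differences were thus seen among the brighter genes of the list, at a level chosen after seeing the data. The arrays of the pools did not overlap for 16 genes of the list on the higher side and 10 on the lower side. Among all genes 27.5% separated upward and 18.5% downward, and among those that reached the level filter 38.5% and 19.6%, so separation of the arrays alone was common. Repeat arrays of a pool differed by a median of 0.044 over the 49 genes in the lean pool and of 0.084 in the obese pool, and the median size of the difference between pools was 0.096.

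**Figure D1:**
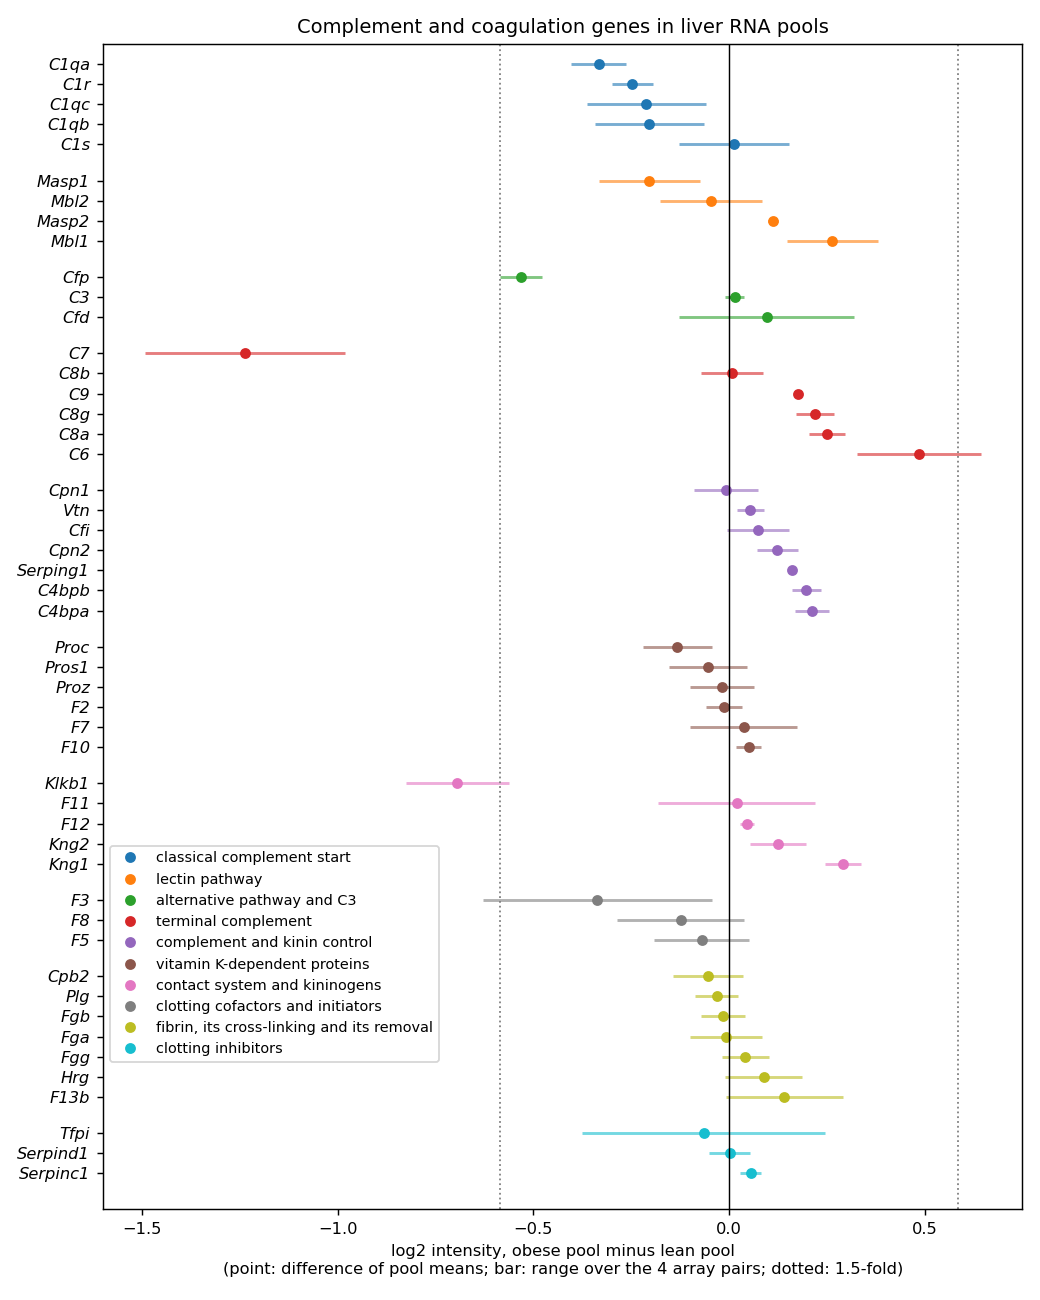
Difference between the pools for each of the 49 measured genes, in log2 intensity (obese minus lean, x axis), grouped by role; points are differences of pool means, bars span all 4 lean-obese array pairings, and dotted lines a factor of 1.5. C7 and Klkb1 lie beyond the left dotted line and no gene lies beyond the right one.

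**Figure D2:**
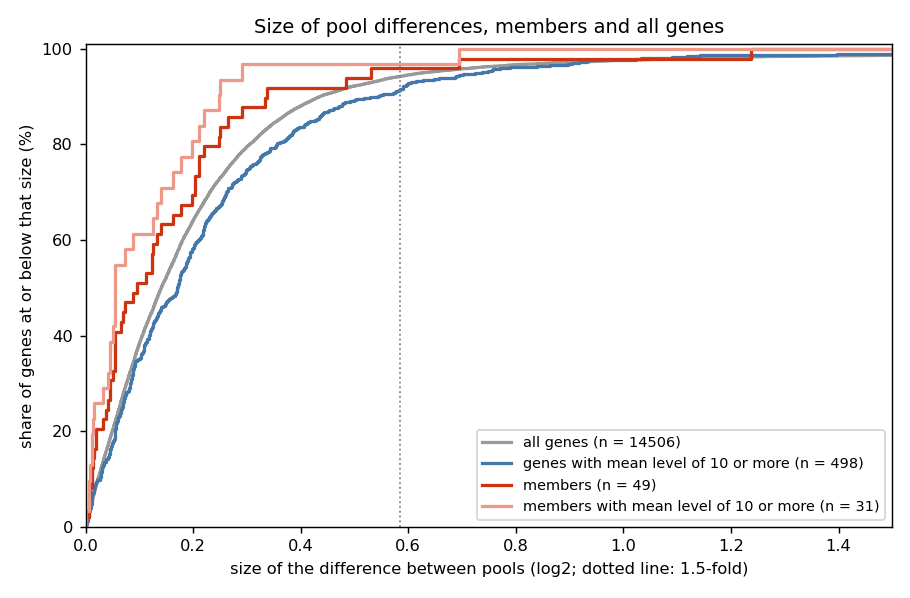
Share of genes (y axis, %) whose difference between the pools is at or below a given size (x axis, log2), for all 14506 genes, the 498 genes with a mean level of 10 or more, the 49 measured members and the 31 members at that level. At a size of 0.25 the members stand at 81.6% and all genes at 72.9%, and the curves come close before the 1.5-fold mark.

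Some facts of the pools bear on all these values. Skeletal muscle transcripts were abundant in the lean pool, where the mean log2 level of 15 measured muscle genes was 10.54 and 10.59 on the lean arrays and 4.92 and 4.96 on the obese arrays. All 15 passed the 2-fold rule as lower, led by Myl1, Myh1 and Tnnt3. They are among the 215 genes called lower by that rule, so the shares of lower genes given above include muscle transcripts. The hepatocyte markers were all 10 above 0, with a median difference of 0.10 and none past the 1.5-fold rule. Macrophage markers had a median of -0.26 (13 of 13 measured below 0), endothelial markers -0.13 (9 of 9), stellate cell and fibroblast markers -0.34 (12 of 13) and adipocyte markers -0.26 (7 of 9). Red cell genes had a median of -0.90 (3 of 3 below 0), lymphocyte markers -0.14 (7 of 10), platelet markers -0.066 (2 of 4), neutrophil markers 0.098 (2 of 7) and bile duct markers 0.027 (2 of 5). The neutrophil and bile duct markers all lay under the level filter, as did 8 of the 10 lymphocyte and 7 of the 9 adipocyte markers. In bulk RNA fewer cells of a type and less RNA per cell cannot be told apart.

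Of the terminal complement genes, whose products assemble into the membrane pore, C7 was lower in the obese pool and C6, C8a, C8g and C9 were somewhat higher. C7 binds the C5b-C6 complex and lets it insert into the membrane. It read 7.55 and 7.44 on the lean original and technical replicate arrays and 6.46 and 6.05 on the obese ones (log2 intensity). The arrays did not overlap, and the obese arrays lay further apart than the lean ones. The difference was -1.24, a 2.36-fold lower level for the obese RNA (array pairs gave 1.98 to 2.81). Each pool lay above the level filter. It passed the 2-fold rule whichever single array was left out, between -1.04, when the obese technical replicate was dropped, and -1.44, when the obese original was. C7 stood at place 199 from the bottom among the 14506 genes. C7 is made by cells other than hepatocytes too, and the mean log2 level of the stellate cell and fibroblast list was 7.30 and 7.29 on the lean and 6.54 and 6.42 on the obese arrays. Of the 13 measured genes of that list 12 lay below 0, 9 of them without overlap of the arrays, with a median of -0.34. Among genes at the filter level 19.6% separated downward, and Pdgfra, which is among the 9, did so by only 0.0006. The sizes were uneven, and 3 genes passed the 1.5-fold rule as lower, Des, Dcn (-1.90) and Col1a1 (-0.97). Des, which muscle expresses too, lay at 9.25 in the lean pool and under the level filter in the obese pool, and Lum lay under it in both. Other genes of the list are named, like Col1a1, after their values were seen. Col1a2 (-0.54), Rgs5 (-0.38), Lrat (-0.34) and Col3a1 (-0.22) were lower without overlap of the arrays. Acta2 (-0.0045), Reln (-0.030) and Pdgfra (-0.068) lay nearer to 0, and Pdgfrb (0.11) was the only gene of the list above 0. The part of these cells, or of the muscle in the lean pool, in the C7 difference was not tested.

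C6, which joins C5b before C7 does, had the largest upward difference of the list. It read 9.72 and 9.76 on the lean arrays and 10.36 and 10.09 on the obese arrays. The arrays did not overlap, and the excess was greater on the obese original array. The difference was 0.48, or 1.40-fold higher (1.25 to 1.56), short of the 1.5-fold rule. C6 passed that rule without the obese technical replicate array, at 0.62, and on the original arrays alone, at 0.64. C6 and C7 lie on chromosome 2 of the assembly GRCr8 with 1 protein-coding gene between them. Their differences were 1.72 apart (1.58 to 1.86 over array pairs), so the neighbours did not move together.

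C8 is built from 3 chains, and they did not share a value. C8a, the alpha chain, read 11.12 and 11.11 in the lean and 11.40 and 11.32 in the obese pool, a difference of 0.25 (0.21 to 0.30). C8g, the gamma chain, differed by 0.22 (0.17 to 0.27). C8b, the beta chain, read 10.81 and 10.88 in the lean and 10.90 and 10.81 in the obese pool, so its arrays overlapped, and its difference of 0.0071 changed sign with cyclic loess and quantile normalisation. C8a and C8b are adjacent on chromosome 5, and their differences were 0.24 apart (0.20 to 0.29), with no overlap of the arrays. C9, which polymerises into the pore, read 11.86 and 11.87 in the lean and 12.04 and 12.05 in the obese pool, a difference of 0.18 (0.17 to 0.18). Its arrays agreed closely within each pool. C8a, C8g and C9 were above 0 under every scaling tried. Their differences lay inside the range of the hepatocyte markers, all 10 of which were above 0, from 0.051 to 0.41. Among genes at the filter level 38.5% separated upward.

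**Figure D3:**
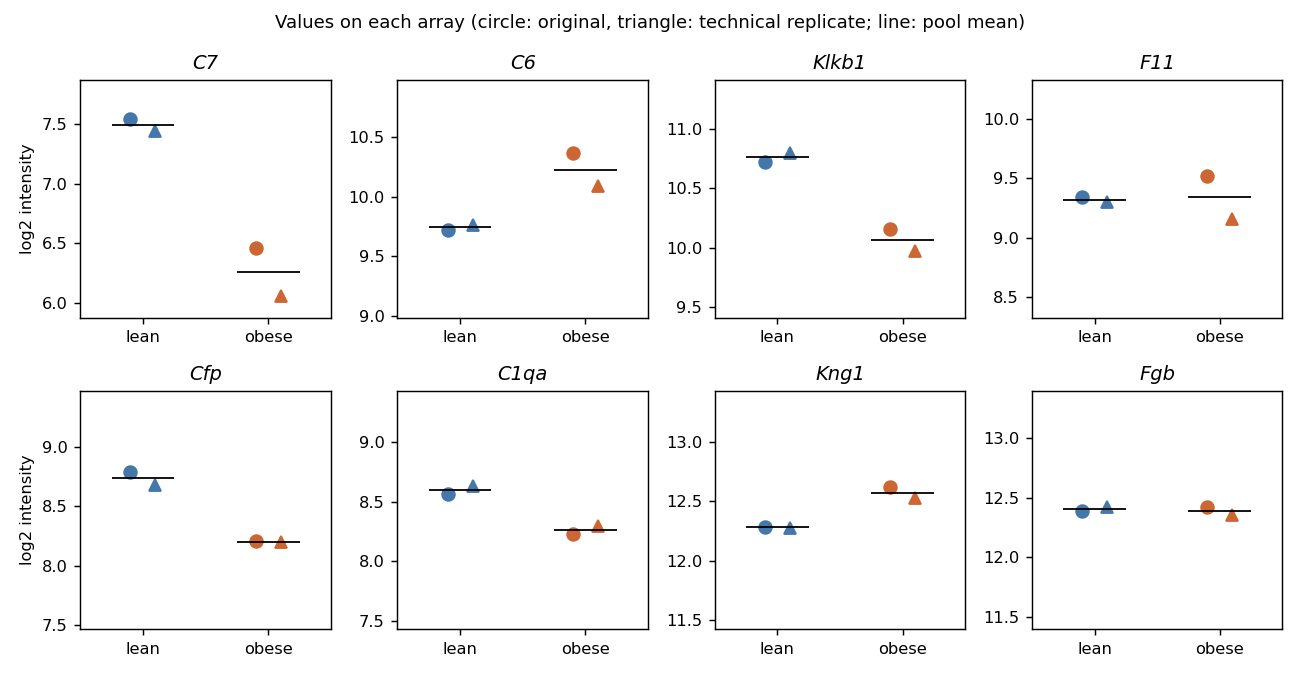
Log2 intensity (y axis, each panel spanning 2 units) on the arrays of the lean and the obese pool for C7, C6, Klkb1, F11, Cfp, C1qa, Kng1 and Fgb; circles are original arrays, triangles technical replicates and lines pool means. C7, Klkb1, Cfp and C1qa are lower on both obese arrays, C6 and Kng1 higher, and F11 and Fgb overlap.

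The first component of the classical pathway was slightly lower in the obese pool in 4 of its 5 genes. C1q, the part that recognises bound antibody, is made of 3 chains. C1qa read 8.56 and 8.63 in the lean and 8.23 and 8.30 in the obese pool, C1qb 7.72 and 7.92 against 7.65 and 7.58, and C1qc 9.18 and 9.47 against 9.12 and 9.10. The arrays of the pools did not overlap for any of the 3, although the gap to the nearest obese array was only 0.064 for C1qb and 0.059 for C1qc. The differences were -0.33 (-0.40 to -0.26), -0.20 (-0.34 to -0.064) and -0.21 (-0.36 to -0.059), and all 3 stayed below 0 under every scaling tried. The 3 genes lie side by side on chromosome 5. C1r, the protease that activates C1s, read 11.65 and 11.61 in the lean and 11.41 and 11.35 in the obese pool, a difference of -0.25 (-0.30 to -0.20). C1s, the protease that cuts C4 and C2, read 10.32 and 10.40 against 10.47 and 10.27, with overlapping arrays and a difference of 0.012 that was below 0 with cyclic loess and with quantile normalisation. C1r and C1s are adjacent on chromosome 4, and their differences were 0.26 apart, C1r being the lower (0.13 to 0.39).

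Properdin (Cfp), which stabilises the alternative pathway convertase, was lower in the obese pool by a factor just short of 1.5. It read 8.79 and 8.68 on the lean arrays and 8.21 and 8.20 on the obese arrays. The arrays were well apart, and the difference was -0.53, or 1.45-fold lower (1.39 to 1.5). Cyclic loess brought it to -0.63 and quantile normalisation to -0.59, and with either of them Cfp passed the 1.5-fold rule.

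C1q and properdin were read beside the markers of macrophages, which express them. The mean log2 level of 13 measured macrophage markers was 8.06 and 8.09 on the lean and 7.90 and 7.68 on the obese arrays, all 13 differences were below 0, and 0 passed the 1.5-fold rule. The largest were those of Tyrobp (-0.49), Cd5l (-0.41) and Clec4f (-0.33), an adaptor of myeloid receptors, a macrophage scavenger protein and a lectin of Kupffer cells. All 13 markers lay above the level filter in at least one pool. The part of macrophage number in the C1q and Cfp differences was not tested.

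**Figure D4:**
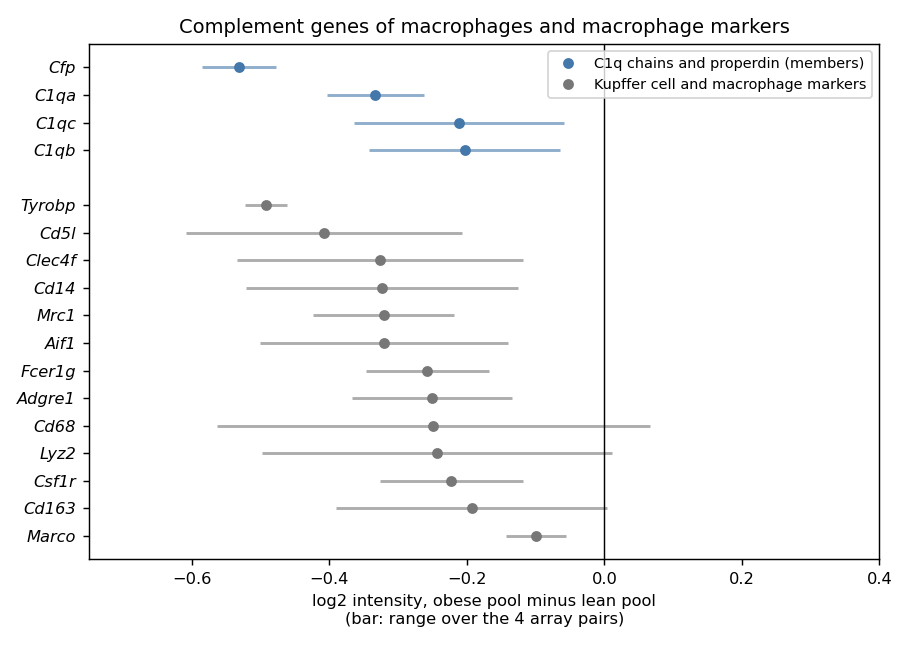
Difference between the pools (x axis, log2 intensity, obese minus lean) of the C1q chains and Cfp above and of 13 macrophage markers below; bars give the range over the 4 array pairs. All 17 points lie to the left of 0, between -0.53 and -0.099.

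C3, on which all complement routes meet, was level. It read 13.02 and 13.03 in the lean and 13.06 and 13.03 in the obese pool, a difference of 0.015 (-0.0094 to 0.039) that turned below 0 with cyclic loess and quantile normalisation. Factor D (Cfd), the protease of the alternative pathway that fat tissue secretes in quantity, read 5.82 and 5.40 in the lean and 5.72 and 5.69 in the obese pool. Its lean arrays lay further apart than the pool means, and both pools were close to the level filter. The shared probe set of C2 and Cfb differed by 0.023 and that of C4a and C4b by 0.24, values that cannot be given to either gene.

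The lectin pathway genes went both ways by small amounts. Mbl1, a mannose-binding lectin, read 8.55 and 8.52 in the lean and 8.90 and 8.70 in the obese pool, a difference of 0.26 (0.15 to 0.38). Mbl2, the other mannose-binding lectin, overlapped, at -0.046 (-0.18 to 0.085). Masp1 and Masp2 encode the proteases that these lectins carry. Masp1 was at -0.20 (-0.33 to -0.075) and Masp2 at 0.11 (0.098 to 0.12), and their differences were 0.32 apart (0.19 to 0.44), with no overlap of the arrays.

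Regulators of complement and kinins were level or slightly higher in the obese pool, with differences from -0.0071 to 0.21. Above 0 lay 6 of the 7, beside 63.6% of all genes at the filter level and 65.5% of those with a mean level of 10 or more. Their median was 0.12, beside 0.10 for the hepatocyte markers, all 10 of which lay above 0. The chains of C4-binding protein, which helps to inactivate C4b, were C4bpa, at 12.33 and 12.32 in the lean and 12.58 and 12.50 in the obese pool, and C4bpb, at 11.23 and 11.19 against 11.43 and 11.39. Their differences of 0.21 (0.17 to 0.25) and 0.20 (0.16 to 0.23) were 0.014 apart, with overlapping arrays. Serping1, the inhibitor of C1 and kallikrein, read 11.87 and 11.88 in the lean and 12.03 and 12.04 in the obese pool, a difference of 0.16 (0.16 to 0.17). Its 4 values fell into close pairs by pool. Cpn2, the regulatory subunit of the carboxypeptidase N that trims anaphylatoxins and kinins, differed by 0.12 (0.072 to 0.18), and Cpn1, the catalytic subunit, overlapped, at -0.0071. Vtn, or vitronectin, which keeps the terminal complex out of membranes, differed by 0.054 and Cfi, the protease that cuts C3b and C4b, by 0.074, which cyclic loess brought to 0.0020 and 0.0075.

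In the contact system, which starts clotting on charged surfaces and releases bradykinin from kininogen, Klkb1 was lower in the obese pool and the kininogen genes were somewhat higher. Klkb1 read 10.72 and 10.80 on the lean arrays and 10.16 and 9.97 on the obese arrays. The pools were clearly apart and the lowest value was that of the obese technical replicate array. The difference was -0.69, or 1.62-fold lower (1.48 to 1.77). Klkb1 kept its call whichever single array was left out, from -0.60 to -0.79, and lost it on the original arrays alone, at -0.56. F11, which encodes factor XI, a close relative of prekallikrein, lies next to Klkb1 on chromosome 16. It read 9.34 and 9.30 in the lean and 9.52 and 9.16 in the obese pool, so its arrays overlapped and its difference of 0.020 changed sign with the scaling. The differences of Klkb1 and F11 were 0.71 apart (0.57 to 0.86). F12, or factor XII, which activates prekallikrein, read 10.65 and 10.68 against 10.72 and 10.70, a difference of 0.046 that was below 0 with cyclic loess and with quantile normalisation.

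Promoter windows of Klkb1 and F11 are shown because these neighbours differed in the comparison. They come from RefSeq and cover 250 bases before and 50 after a start site, 5′ to 3′ on the strand of the gene. Capitals mark matches to any of 4 motifs, searched on both strands with N for any base: GTTAAT followed by N and ATT for HNF1, CAAAGTCCA for HNF4, TTGCNNAA for C/EBP and TTCNNNGAA for STAT factors.
Klkb1 (GRCr8, chr16:53690976-53691275, + strand): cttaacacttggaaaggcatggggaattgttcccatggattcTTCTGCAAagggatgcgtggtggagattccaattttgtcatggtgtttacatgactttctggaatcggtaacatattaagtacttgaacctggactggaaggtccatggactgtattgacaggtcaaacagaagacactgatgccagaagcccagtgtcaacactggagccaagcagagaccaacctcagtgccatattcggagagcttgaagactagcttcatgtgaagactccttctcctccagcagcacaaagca
F11 (GRCr8, chr16:53720252-53720551, + strand): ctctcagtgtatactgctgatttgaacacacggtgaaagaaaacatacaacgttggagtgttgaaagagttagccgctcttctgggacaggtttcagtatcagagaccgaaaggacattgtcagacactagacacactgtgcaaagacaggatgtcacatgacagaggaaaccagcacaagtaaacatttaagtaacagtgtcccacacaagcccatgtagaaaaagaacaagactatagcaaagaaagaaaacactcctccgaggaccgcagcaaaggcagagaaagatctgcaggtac
The Klkb1 window holds 1 match, TTCTGCAA, which fits the C/EBP letters on the reverse strand, and the F11 window holds 0. A C/EBP match occurred in 10.6% of the 33469 windows of all genes.

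The kininogens are the substrates of kallikrein. Kng1 read 12.28 and 12.28 in the lean and 12.62 and 12.53 in the obese pool, a difference of 0.29, or 1.22-fold higher (1.19 to 1.26). Its other probe set differed by 0.24, so both were above 0. Kng2 read 11.75 and 11.73 against 11.80 and 11.93, a difference of 0.13 (0.054 to 0.20). The differences of Kng1 and Kng2 lay inside the range of the 10 hepatocyte markers, 0.051 to 0.41. Rat kininogen genes are near copies of each other and lie side by side on chromosome 11, so probe sets may take up signal from both.

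The vitamin K-dependent proteins, which carry carboxylated glutamates that bind calcium, were level. All 6 measured genes lay between -0.13 and 0.050 and 0 passed the 1.5-fold rule. F2, or prothrombin, read 11.52 and 11.55 in the lean and 11.49 and 11.56 in the obese pool, with overlapping arrays and a difference of -0.013 (-0.058 to 0.033). F7, which starts clotting with tissue factor, was at 0.038 (-0.100 to 0.17), and F10, which cuts prothrombin, at 0.050 (0.018 to 0.083), both below 0 with cyclic loess, and F7 with quantile normalisation too. F7, F10 and Proz lie in a row on chromosome 16, and the differences of neighbours among them were at most 0.069 apart. Among the anticoagulant members, Proc, or protein C, read 11.10 and 11.20 in the lean and 11.05 and 10.98 in the obese pool, and its difference of -0.13 (-0.22 to -0.044) was the only one of the 6 on the lower side without overlap. Pros1, the cofactor of protein C, was at -0.054 and Proz, the cofactor of an inhibitor of factor X, at -0.019, both with overlapping arrays.

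Of the genes on the list of the vitamin K cycle and factor secretion, 8 of 11 measured (72.7%) lay above 0, as did 56.9% of all genes and 63.6% of those at the filter level, and 2 passed the 1.5-fold rule as higher and 0 as lower. All 11 reached the level filter, and their median difference was 0.28 beside 0.076 for the genes that reached it and 0.033 for all genes. The lowest of the 11 differences was that of Mgp, named after its value was seen, at -0.58. It was 1.499-fold lower, just short of the 1.5-fold rule. Of genes at the filter level 4.2% were called higher and 4.66% lower, and 11 genes are too few to read against those shares. Nqo1, a quinone reductase that can also reduce vitamin K, was 2.00-fold higher (1.77 to 2.27). Lman1, which with Mcfd2 carries factors V and VIII out of the endoplasmic reticulum, had pool means of 9.75 (lean) and 10.38 (obese) and was 1.54-fold higher (1.42 to 1.69). Lman1 missed the rule without the obese original array, at 0.55, without the lean technical replicate array, at 0.58, and with cyclic loess, at 0.54. Its partner Mcfd2, read here from the brighter of its 2 probe sets only, overlapped, at 0.076 (-0.012 to 0.16). The enzymes of the cycle, named after their values were seen, were Ggcx, the carboxylase, at 0.28 (0.20 to 0.36), and the epoxide reductases Vkorc1, at 0.41 (0.33 to 0.48), and Vkorc1l1, at 0.53 (0.43 to 0.64). None of the 3 passed the 1.5-fold rule, although Vkorc1l1 did without the obese technical replicate array, at 0.59, and all 3 were above 0 under every scaling tried.

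**Figure D5:**
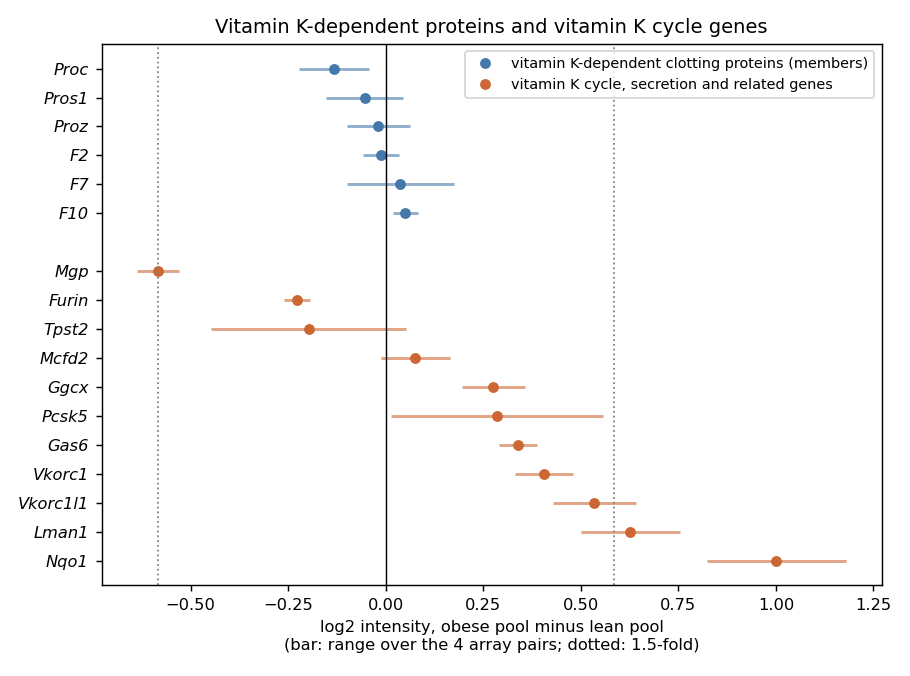
Difference between the pools (x axis, log2 intensity, obese minus lean) of the 6 vitamin K-dependent clotting genes above and of 11 genes of the vitamin K cycle, factor secretion and related steps below; bars give the range over the 4 array pairs and dotted lines a factor of 1.5. The clotting genes lie between -0.13 and 0.050, and Nqo1 and Lman1 lie beyond the right dotted line.

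The cofactors and the starter of clotting were level or dim. F5, the cofactor of factor X, read 8.98 and 8.97 in the lean and 9.02 and 8.79 in the obese pool, with overlapping arrays, at -0.070 (-0.19 to 0.052). F8, the cofactor of factor IX, was dim, at 5.69 and 5.66 against 5.40 and 5.70, and overlapped. F3, or tissue factor, read 5.14 and 4.67 in the lean and 4.51 and 4.63 in the obese pool, under the level filter in both pools, so no fold is given. Tfpi, the inhibitor of tissue factor, read 5.83 and 5.98 against 6.07 and 5.60, and its obese arrays were 0.47 apart, the widest gap between obese arrays among the 49 genes.

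Fibrinogen was level in all 3 chains. Fga, the alpha chain, read 12.43 and 12.52 in the lean and 12.52 and 12.42 in the obese pool. Fgb, the beta chain, read 12.39 and 12.43 against 12.43 and 12.35, and Fgg, the gamma chain, 12.85 and 12.89 against 12.95 and 12.87. The arrays of the pools overlapped for each chain. The differences were -0.0084, -0.016 and 0.042, each of which took either sign over the scalings. The 3 genes are adjacent on chromosome 2. Acute inflammation is known to raise fibrinogen transcription through interleukin-6. Of the 10 genes on the list of interleukin-6 signalling 0 passed the 1.5-fold rule in either direction. At the filter level 4.2% of genes were called higher and 4.66% lower, so 10 genes are too few to read against those shares. The differences of the interleukin-6 list ran from -0.44 (Lifr) to 0.50 (Socs3), with 5 genes above 0 and 5 below. Lifr and Socs3, named after their values were seen, had arrays without overlap. The receptor chains Il6st (-0.43) and Il6r (-0.21), also named after their values were seen, were lower without overlap. Over the list 4 genes separated upward and 3 downward. The list also holds Il1r1, Nfkb1 and Nfkbia.

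The promoter windows of the fibrinogen chains are shown because all 3 chains were level, with the same capitals as above.
Fga (GRCr8, chr2:170671919-170672218, + strand): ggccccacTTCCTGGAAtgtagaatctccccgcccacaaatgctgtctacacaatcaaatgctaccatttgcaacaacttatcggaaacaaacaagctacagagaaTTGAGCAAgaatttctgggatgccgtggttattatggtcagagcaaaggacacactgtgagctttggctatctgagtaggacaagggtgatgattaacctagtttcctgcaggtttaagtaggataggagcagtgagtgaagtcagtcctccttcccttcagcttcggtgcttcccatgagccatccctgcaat
Fgb (GRCr8, chr2:170700826-170701125, - strand): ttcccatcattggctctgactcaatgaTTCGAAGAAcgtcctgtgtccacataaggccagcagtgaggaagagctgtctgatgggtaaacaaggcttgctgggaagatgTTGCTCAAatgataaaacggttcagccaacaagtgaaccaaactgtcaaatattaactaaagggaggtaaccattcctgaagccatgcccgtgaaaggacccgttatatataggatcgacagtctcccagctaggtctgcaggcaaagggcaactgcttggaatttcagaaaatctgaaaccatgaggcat
Fgg (GRCr8, chr2:170652833-170653132, + strand): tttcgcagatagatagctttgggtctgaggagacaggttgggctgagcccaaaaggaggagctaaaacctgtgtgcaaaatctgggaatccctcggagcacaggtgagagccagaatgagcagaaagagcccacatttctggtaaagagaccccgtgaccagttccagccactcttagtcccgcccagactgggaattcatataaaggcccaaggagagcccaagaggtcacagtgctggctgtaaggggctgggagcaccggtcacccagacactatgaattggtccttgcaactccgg
The printed Fga and Fgb windows each hold 1 C/EBP match and 1 STAT match, a second Fga window (chr2:170671937-170672236, + strand) holds the C/EBP match alone, and Fgg holds 0 matches to the 4 motifs. Over the list, 39 of the 55 genes had at least 1 window, 41 windows in all. A C/EBP match stood in 15 of the 41 windows (36.6%) beside 10.6% of all windows, a STAT match in 8 (19.5%) beside 8.87%, an HNF1 match in 3 (7.32%) beside 0.335%, and an HNF4 match in 1 (2.44%) beside 0.391%. The HNF1 matches lay in C5, F13b and Plg and the HNF4 match in Proz. A match describes the letters and no more, and the Fga windows overlap each other.

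The remaining genes of fibrin handling were level too, and none of the 7 genes of this role had arrays without overlap. Arrays without overlap were found for 58.1% of genes at the filter level and 75.7% of those with a mean level of 10 or more. F13b, the carrier subunit of the enzyme that cross-links fibrin, was at 0.14 (-0.0081 to 0.29), Plg, or plasminogen, at -0.032 (-0.086 to 0.023), Cpb2, a carboxypeptidase that slows fibrin breakdown, at -0.054 (-0.14 to 0.035), and Hrg, a histidine-rich glycoprotein that binds plasminogen, at 0.088 (-0.011 to 0.19). Of the serpins that block clotting proteases, Serpinc1, or antithrombin, read 12.05 and 12.10 in the lean and 12.13 and 12.13 in the obese pool, a difference of 0.055 (0.028 to 0.083) that was below 0 with cyclic loess. Serpind1, or heparin cofactor II, overlapped, at 0.0015 (-0.052 to 0.055).

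Among the other genes of the pathways, 3 of 84 measured were at least 1.5-fold higher and 0 lower, with a median difference of -0.020. Of the 84 genes 67 reached the level filter, and 2.19% of all genes and 4.2% of those at that level were called higher, so a count of 3 is close to the background. They were Nqo1, Lman1 and A2m, a broad protease inhibitor of plasma that was 1.74-fold higher (1.57 to 1.94). By list, 0 of 21 further complement genes, 1 of 28 further genes of clotting and fibrinolysis, 2 of 11 of the vitamin K list, 0 of 14 liver transcription factors and 0 of 10 interleukin-6 genes passed, counts too small to read against those shares. The medians of the complement, clotting and transcription factor lists were -0.048, -0.030 and -0.038, and that of the interleukin-6 list 0.054. Hnf4a, a main activator of clotting genes in hepatocytes and named after its value was seen, was at 0.11 (0.079 to 0.14). The 14 differences of the transcription factor list ran from -0.55 (Foxa3) to 0.46 (Dbp), with 6 above 0 and 8 below. Onecut1 was at -0.51. Foxa3, Dbp and Onecut1 were named after their values were seen, and none of them passed the 1.5-fold rule.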

How the data were processed

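Liver RNA was measured on 4 arrays, 2 for each pool. The authors deposited linear-scale intensities made with RMA, per the submitters' processing notes; its version, the genome build and the step back from log2 are not given in the sources used here. RMA is known to shrink fold changes of dim probe sets. The log2 of each value was taken with no further normalisation (Python 3.11.15, numpy 2.4.6, pandas 2.3.3), and R 4.3.3 with limma 3.58.1 gave the alternative normalisations. The platform annotation gave a single symbol to 15310 of 29214 probe sets and several to 323, and did not list 13581; 15279 matched the gene table of GRCr8 and 0 symbols changed. The 2 arrays of a pool were averaged, and ranges over the 4 array pairs cover measurement error only. The calling code was tested on simulated data.

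The members, lists and size rules were chosen with earlier results of these data known. Genes named outside the list are those past the 1.5-fold rule and up to 3 markers a list by size; other names were picked after their values were seen and are marked so, as is Mcfd2, the partner of Lman1. The level of 10 was also chosen after seeing the data. No protein sequences were used here. Alternatives were leaving out each array, using 1 array run, cyclic loess, median centring, quantile normalisation, an offset of 16, no level filter, and the mean over probe sets.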

Additional observations from a re-analysis of the deposited data

How the results depend on the processing

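No paired analysis was possible because each phenotype is 1 pool and the results come from no test. C7 was 2-fold lower under every alternative run, and no member was 2-fold higher. The count of members 1.5-fold higher was 0 except on the original arrays alone, where it was 1 (C6), and it ran from 0 to 1 when an array was left out. The count lower was 2, but 1 on the original arrays alone and 3, with Cfp added, under cyclic loess and quantile normalisation. The median of the members was 0.063 on the original arrays alone, -0.069 with cyclic loess and -0.027 with quantile normalisation. Of the other pathway genes, 0 were lower, but 0 to 2 when an array was left out, 1 on the original and 2 on the technical replicate arrays alone, 3 with cyclic loess and 2 with quantile normalisation; these were Foxa3, Mgp, Onecut1 and Il6st, named after their values were seen. Their median was 0.027 on the original and -0.075 on the technical replicate arrays alone and -0.069 with cyclic loess. The split of all called genes, 47.4% higher, was 35.5% with cyclic loess, 62.2% without the obese technical replicate array and 64.3% on the original arrays alone. Of the 49 members, 15 changed sign under a scaling, 3 of them (F10, F12 and Serpinc1) with arrays that did not overlap. No called gene changed sign. Without detection calls, F3, F8, Tfpi and Cfd are not known to lie above background.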
